A study of Mus musculus with 16 samples.

Results

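The genes described here are 8 genes of the peroxisomal arm of fatty acid oxidation, Abcd3, Acox3, Ehhadh, Hsd17b4, Acaa1a, Acaa1b, Scp2 and Decr2, taken by their symbols from the 45777 genes of the expression table. All 8 had a count in every tumor and were tested, whereas 29568 genes of the table had a count of 0 in at least 1 tumor and were excluded, which left 16209. The tumors were subcutaneous allografts of B16F10 cells, a melanoma line of C57BL/6 origin, injected at 6 weeks of age into lean wild-type C57BL/6J mice or into ob/ob mice, which lack leptin and become obese. RNA of whole tumors was sequenced, part of them before therapy and part after treatment with etoposide (ETS), an inhibitor of topoisomerase that leaves breaks in DNA, dosed 5 times at 20 mg per kg into the peritoneum. Each of the 4 groups, lean before therapy, lean after ETS, obese before therapy and obese after ETS, held 4 tumors. The labels call the tumors before therapy ctrl, and the study describes them as taken before chemotherapy. The sources used here do not say how long these tumors grew or whether their hosts received vehicle. Changes after ETS therefore cannot be told apart from a difference in growth time or injection. Every group carried the same tumor line, and obesity in ob/ob mice rests on the loss of a single hormone, so the host differs by genotype as well as by body weight. The labels number the tumors and do not name the mice, so p-values measure the spread between these tumors.

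Peroxisomes shorten fatty acids that mitochondria handle poorly, among them very long-chain, branched-chain and dicarboxylic acids and the side chain of bile acid precursors. A transporter in the peroxisomal membrane admits the acyl-CoA, an oxidase makes the first double bond and passes its electrons to oxygen as hydrogen peroxide, a bifunctional enzyme hydrates and dehydrogenates the product, and a thiolase cleaves off acetyl-CoA or propionyl-CoA. The pathway is best known from liver, where agonists of the nuclear receptor PPARα induce several of its genes in rodents, and melanoma cells carry peroxisomes as well.

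Acaa1a and Acaa1b encode near-identical thiolases, which bears on how their reads can be told apart. The coding sequences taken from the GENCODE M21 transcripts were 1275 bases each and were identical at 1231 positions (96.5%), with a longest identical run of 327 bases. Of the 1175 windows of a read's length that the coding sequence holds, 280 (23.8%) occurred without a mismatch in the paralog. The stretch of coding positions 460 to 549 is shown because it holds 13 of the 44 differences, each printed as a capital.
Acaa1a: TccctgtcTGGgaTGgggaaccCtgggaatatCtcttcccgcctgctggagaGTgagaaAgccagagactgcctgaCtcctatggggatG
Acaa1b: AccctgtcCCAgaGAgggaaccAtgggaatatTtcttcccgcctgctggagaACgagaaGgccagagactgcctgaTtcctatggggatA
Reads inside such a stretch can be assigned to a single gene, whereas a read inside the identical run cannot by itself. The reads were paired, and a mate that covers a difference can settle such a read, which the share of windows does not weigh. How the authors' counting assigned shared reads is not given in the sources used here. Values of Acaa1a and Acaa1b are therefore uncertain, and not to the same degree. Acaa1a held 2671 to 4638 counts per tumor and Acaa1b 110 to 317, so shared reads weigh far more on Acaa1b. The part of such reads in the values and calls of Acaa1b, and in its likeness to Acaa1a, was not tested.

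Promoter windows from RefSeq (GRCm38.p6), 250 bases before the annotated start, were matched for 7 of the 8 genes. Hsd17b4 was not matched. The windows of Acox3 and Scp2 are shown because these genes were called in lean and in obese tumors, and that of Acaa1b as the thiolase copy with a different upstream sequence. Capitals mark AGGTCA, the half-site of nuclear receptors such as PPARα, GGGCGG, the GC box, and CCAAT, each on either strand.
Acox3, chr5:35582784-35583033, plus strand: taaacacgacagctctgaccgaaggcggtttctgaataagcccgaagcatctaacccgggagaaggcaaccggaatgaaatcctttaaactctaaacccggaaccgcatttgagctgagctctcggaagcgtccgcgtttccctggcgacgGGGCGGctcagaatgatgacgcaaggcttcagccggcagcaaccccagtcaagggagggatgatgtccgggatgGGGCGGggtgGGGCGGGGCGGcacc
Acaa1b, chr9:119157094-119157343, minus strand: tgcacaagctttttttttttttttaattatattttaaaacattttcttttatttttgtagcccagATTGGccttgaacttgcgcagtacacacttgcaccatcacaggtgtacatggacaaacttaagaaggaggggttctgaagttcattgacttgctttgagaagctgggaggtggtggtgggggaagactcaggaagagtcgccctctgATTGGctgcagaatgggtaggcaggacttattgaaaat
Scp2, chr4:108118548-108118797, minus strand: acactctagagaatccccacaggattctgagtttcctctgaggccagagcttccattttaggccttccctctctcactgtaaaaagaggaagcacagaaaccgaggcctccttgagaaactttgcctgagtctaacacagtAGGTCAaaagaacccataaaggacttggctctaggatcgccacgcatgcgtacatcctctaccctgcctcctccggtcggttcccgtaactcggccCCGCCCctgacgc
The window of Acox3 reaches into the outer bounds of the gene and into an annotated antisense transcript, and that of Scp2 lies inside the gene's outer bounds, before its internal start. The GC box stood 4 times in the window of Acox3, 1 time in that of Scp2 and not in that of Acaa1b, and 32.7% of 32851 windows of the same length held it. CCAAT stood 2 times in the window of Acaa1b and not in those of Acox3 and Scp2, against 33.9% of all windows. AGGTCA stood in the window of Scp2 alone among the 7 genes, against 14.0% of all windows. The direct repeat AGGTCANAGGTCA, a pair of half-sites 1 base apart, was found in no window of the 7 genes and in 0.033% of all windows, and with 1 base of each half-site left free (AGGNCANAGGNCA) again in none of the 7 and in 0.338% of all. These letters outside the windows were not searched.

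The totals per tumor ranged from 47199949 to 61655287 counts. The defining markers of melanocytes were present in all tumors, with all 8 tested and a summed level between 11264 and 27992 CPM, the counts scaled to a common library size. Markers moved with the groups: after ETS, of 8 macrophage markers 5 fell with the lean host and 5 rose with the obese host. Of 6 fibroblast markers 3 fell and 6 rose. Over all tested genes, 22.8% fell with the lean host and 21.2% rose with the obese host. Of the 8 melanocyte markers, 2 rose with the lean host, where 21% of all genes rose, and 3 with the obese host, and 0 fell in either. Their median sum was 22190 and 26048 CPM in lean and 14172 and 19400 CPM in obese tumors before and after ETS. The summed fibroblast level was 514 to 2175 CPM in lean tumors before therapy, 88.7 to 585 CPM after ETS, 85.9 to 592 CPM in obese tumors before therapy and 591 to 5646 CPM after ETS. The mitochondrially encoded genes took 4.15% to 6.04% of counts in lean tumors before therapy, 9.75% to 14.4% after ETS, 4.02% to 5.52% in obese tumors before therapy and 4.63% to 11.6% after ETS. Hepatocyte markers, which would mark the tissue richest in this pathway, summed to at most 0.417 CPM in any tumor, and Cyp3a11 was at 0 in all. Skeletal muscle markers summed to 0.526 to 163 CPM in lean tumors before therapy and 2.66 to 223 CPM after ETS. In obese tumors they summed to 0.798 to 1.199 CPM and 1.15 to 290 CPM. Keratinocyte markers reached 142 CPM in obese tumors after ETS (median 0) and at most 3.37 CPM in other groups. T cell markers summed to 14.6 to 26.9 CPM in lean tumors before therapy and at most 1.34 CPM in other groups. The part of these cells in the values was not tested. Tumor 4 of the obese ETS group stood apart, with the highest fibroblast level, the lowest mitochondrial share of its group and the lowest correlation with another tumor of its group (0.970).

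Per transcript length, the 8 genes fell into a higher and a lower level group. In TPM, which divides counts by transcript length, Abcd3 (67.9 ± 3.01, mean ± SD, n = 4), Acaa1a (61.7 ± 2.49), Scp2 (49.6 ± 2.01) and Hsd17b4 (46.9 ± 2.67) were the high genes in lean tumors before therapy. Acox3 (14.7 ± 0.702), Decr2 (13.2 ± 1.03) and Ehhadh (11.0 ± 1.15) were lower, and Acaa1b (3.34 ± 0.315) was lowest in each of the 16 tumors. Of the neighbors in this order, Scp2 and Hsd17b4, Acox3 and Decr2, and Decr2 and Ehhadh overlapped in their ranges over the tumors of the group, and the other neighbors did not. The dominant thiolase of the tumors was thus Acaa1a, whose TPM exceeded that of its paralog in every tumor. After ETS the highest mean belonged to Acaa1a in lean tumors (67.3 ± 7.34 TPM) and in obese tumors (66.1 ± 4.19 TPM). Scp2 came next, at 57.9 ± 7.11 and 65.4 ± 6.35 TPM, and its range overlapped that of Acaa1a in both hosts, so this order is not firm.

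**Figure D1:**
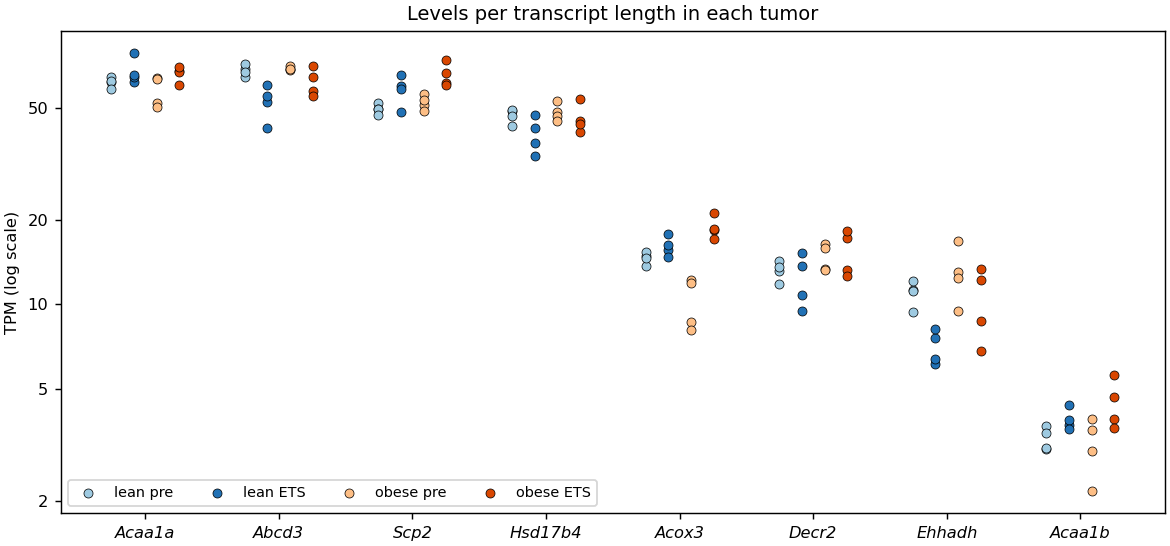
TPM of each gene in each tumor on a log scale, with genes ordered by their mean and points colored by group. Abcd3, Acaa1a, Scp2 and Hsd17b4 lie above the other genes in every tumor, and Acaa1b lies lowest.

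The first question was which of the genes changed after ETS in each host. In lean tumors edgeR's quasi-likelihood test called 3 of the 8 genes as higher (adjusted p below 0.05), where 21% of all 16209 tested genes rose, and 0 fell, where 22.8% of all genes fell. In obese tumors 3 rose as well, where 21.2% of all genes rose, and 0 fell, where 19% of all fell. The same genes were not called in both hosts: Acox3 and Scp2 rose in both, Acaa1a in lean tumors and Acaa1b in obese tumors. The 3 of 8 is above the background share, but the list is small and was chosen with results of these data known. No gene of the 8 was lower at an unadjusted p under 0.05 in either host, and DESeq2 called 4 higher and 0 lower in lean tumors and 3 higher and 0 lower in obese tumors. Of all 16209 genes, DESeq2 called 3626 higher and 3789 lower in lean tumors, and 3766 higher and 3155 lower in obese tumors. Across the 8 genes the median log2 fold change was 0.38 with the lean host and 0.22 with the obese host, against -0.015 and 0.0066 over all tested genes.

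**Figure D2:**
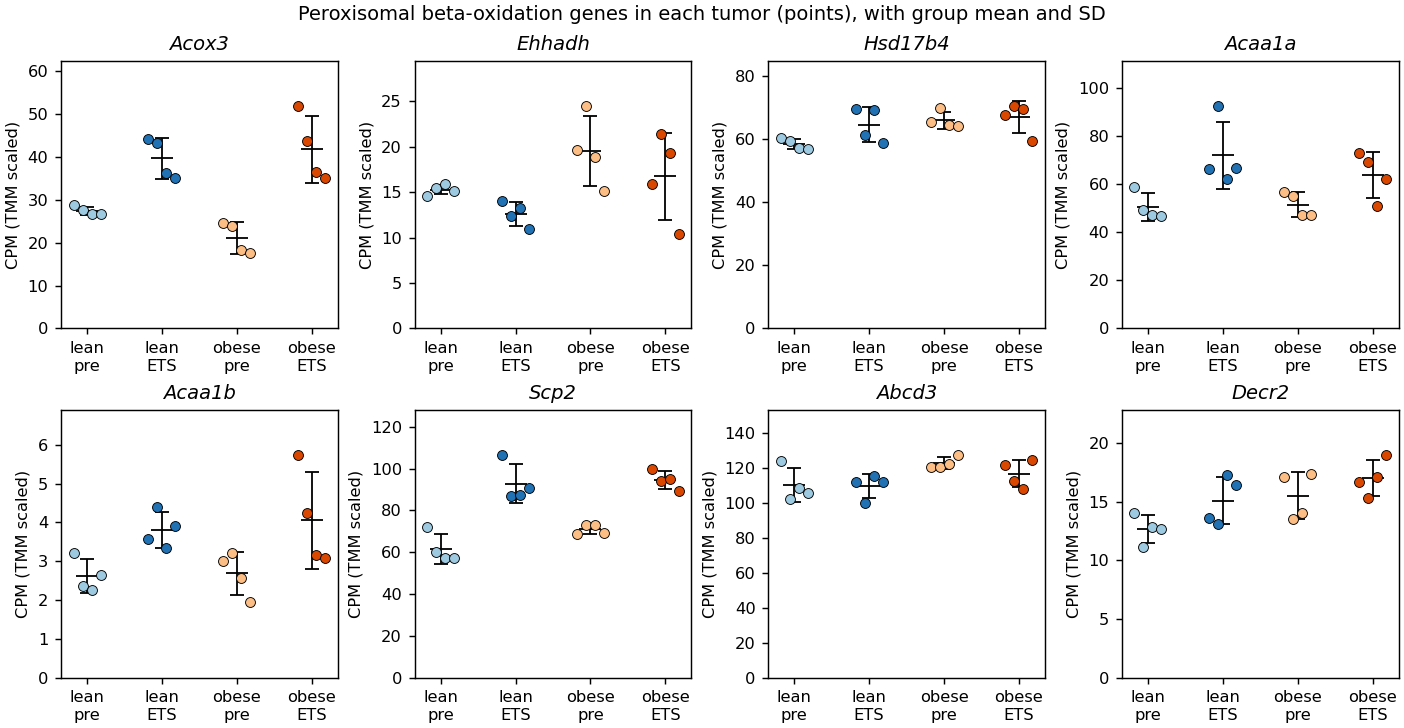
CPM of the 8 genes in each tumor (points, scaled by TMM), with the group mean and SD (n = 4); each vertical axis starts at 0. After ETS the Acox3 and Scp2 points lie above those before therapy in both hosts without overlap, while those of Abcd3 and Hsd17b4 overlap.

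Abcd3 (gene ID 19299, chromosome 3, 121758904 to 121815302, minus strand) encodes the transporter that admits branched-chain and dicarboxylic acyl-CoAs to the peroxisome. It was at 124, 103, 108 and 106 CPM in lean tumors before therapy and at 112, 99.9, 115 and 112 CPM after ETS. In obese tumors it was at 121, 121, 122 and 128 CPM before therapy and at 122, 113, 108 and 125 CPM after ETS. The groups overlapped in both hosts, and the log2 fold changes were -0.0067 (standard error 0.076, adjusted p = 0.950) in lean and -0.073 (standard error 0.076, adjusted p = 0.468) in obese tumors. The entry step thus showed no change beyond the spread between tumors on this scale, which was narrow for this gene at a pooled SD of 0.092 on the log2 CPM scale.

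Acox3 (gene ID 80911, chromosome 5, 35582981 to 35614208, plus strand) encodes an acyl-CoA oxidase with a preference for branched-chain substrates and showed the largest change of the 8 genes in obese tumors. In lean tumors it was at 28.7, 27.6, 26.7 and 26.6 CPM before therapy and at 44.1, 43.1, 36.1 and 35.0 CPM after ETS. In obese tumors it was at 24.5, 24.0, 18.3 and 17.5 CPM before therapy and at 51.9, 43.7, 36.4 and 34.9 CPM after ETS. Every tumor after ETS lay above every tumor before therapy of its host, and every obese tumor before therapy lay below every lean tumor before therapy. The rise was 1.45-fold in lean tumors (log2 0.53, standard error 0.14, adjusted p = 0.00659) and 1.98-fold in obese tumors (log2 0.99, standard error 0.14, adjusted p = 0.000127). Both calls held with each of the 16 tumors left out in turn, with log2 fold changes between 0.45 and 0.59 in lean and between 0.88 and 1.06 in obese tumors. In the obese ETS group, tumors 1 and 2, with the higher Acox3, had mitochondrially encoded shares of 11.5% and 11.6%, and tumors 3 and 4 of 6.64% and 4.63%. The part of this share in the Acox3 values was not tested.

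Ehhadh (gene ID 74147, chromosome 16, 21761285 to 21787834, minus strand) encodes the L-bifunctional enzyme, a classical target of PPARα in liver. It was at 14.6, 15.4, 15.8 and 15.2 CPM in lean tumors before therapy and at 14.0, 12.3, 13.3 and 10.9 CPM after ETS. In obese tumors it was at 19.6, 24.5, 18.9 and 15.1 CPM before therapy and at 15.9, 21.4, 19.3 and 10.4 CPM after ETS. The lean tumors after ETS all lay below those before therapy, by a narrow gap, and the obese groups overlapped. Neither change passed the test, with log2 fold changes of -0.27 (standard error 0.19, adjusted p = 0.248) in lean and -0.22 (standard error 0.19, adjusted p = 0.358) in obese tumors. Its lowest obese value after ETS came from tumor 4, and without that tumor the obese log2 fold change was -0.043.

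Hsd17b4 (gene ID 15488, chromosome 18, 50128201 to 50196270, plus strand), the D-bifunctional enzyme that serves very long-chain and branched-chain acids, was at 57.0 to 60.3 CPM in lean tumors before therapy and 58.7 to 69.4 CPM after ETS. The obese ranges were 64.0 to 69.8 CPM and 59.5 to 70.6 CPM. The groups overlapped in each host, with log2 fold changes of 0.14 (standard error 0.075, adjusted p = 0.128) in lean and 0.021 (standard error 0.075, adjusted p = 0.852) in obese tumors. The L- and the D-bifunctional enzyme, which catalyze the same pair of steps, were thus both not called after ETS.

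Acaa1a (gene ID 113868, chromosome 9, 119341028 to 119350296, plus strand), the main thiolase by level, overlaps Slc22a14 and Myd88 on the opposite strand. It was at 58.8, 49.4, 47.2 and 46.6 CPM in lean tumors before therapy and at 66.4, 92.7, 62.0 and 66.7 CPM after ETS. In obese tumors it was at 56.7, 55.2, 47.1 and 47.2 CPM before therapy and at 72.8, 69.3, 51.1 and 62.4 CPM after ETS. All lean tumors after ETS lay above those before therapy, with tumor 2 well above the others, whereas obese tumor 3 after ETS lay within the range before therapy. The rise was 1.42-fold in lean tumors (log2 0.51, standard error 0.14, adjusted p = 0.00756), and it was called without any 1 of the tumors, with a lowest log2 fold change of 0.36. In obese tumors the log2 fold change was 0.31 (standard error 0.14, adjusted p = 0.0810), which was not called, although it was without obese ETS tumor 3 (0.40, adjusted p = 0.0273) and without lean ETS tumor 2 (0.32, adjusted p = 0.0311).

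Acaa1b (gene ID 235674, chromosome 9, 119148043 to 119157093, minus strand), the second thiolase copy, lies near Acaa1a and overlaps Dlec1 on the opposite strand. It was at 3.22, 2.35, 2.26 and 2.65 CPM in lean tumors before therapy and at 3.56, 4.39, 3.33 and 3.90 CPM after ETS. In obese tumors it was at 3.02, 3.21, 2.58 and 1.94 CPM before therapy and at 5.75, 4.24, 3.16 and 3.08 CPM after ETS. The lean groups did not overlap and the obese groups did. The test called the obese rise of 1.51-fold (log2 0.59, standard error 0.23, adjusted p = 0.0472) and not the lean one of 1.45-fold (log2 0.54, standard error 0.23, adjusted p = 0.0658), and the values of the pair are close. The obese call held in 5 of 10 other settings and in 5 of the 16 fits that leave out a tumor, with adjusted p-values up to 0.171 without obese ETS tumor 1, and the lean rise was called in 2 of the 16, without lean tumor 1 before therapy (adjusted p = 0.0419) and without obese ETS tumor 1 (adjusted p = 0.0460).

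Scp2 (gene ID 20280, chromosome 4, 108043830 to 108144971, minus strand) encodes from alternative starts the thiolase for branched side chains and sterol carrier protein 2, which binds sterols and other lipids, and the gene counts do not separate these products. In lean tumors it was at 72.2, 60.3, 57.2 and 57.1 CPM before therapy and at 107, 87.0, 87.4 and 90.6 CPM after ETS. In obese tumors it was at 68.6, 73.1, 73.1 and 69.1 CPM before therapy and at 99.6, 94.2, 95.1 and 89.3 CPM after ETS. No tumor after ETS overlapped those before therapy in either host. The rise was 1.51-fold in lean tumors (log2 0.59, standard error 0.087, adjusted p = 0.000125) and 1.33-fold in obese tumors (log2 0.41, standard error 0.087, adjusted p = 0.00192). Both calls held without any 1 of the 16 tumors, with adjusted p-values of at most 0.000776 and 0.00768.

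Decr2 (gene ID 26378, chromosome 17, 26081208 to 26090322, minus strand) encodes the peroxisomal 2,4-dienoyl-CoA reductase, an auxiliary enzyme for polyunsaturated acids, and overlaps no other annotated gene. It was at 11.1 to 14.0 CPM in lean tumors before therapy and 13.1 to 17.2 CPM after ETS, and at 13.5 to 17.3 and 15.3 to 19.0 CPM in obese tumors. The groups overlapped in both hosts. The log2 fold changes were 0.25 (standard error 0.13, adjusted p = 0.115) in lean and 0.13 (standard error 0.13, adjusted p = 0.414) in obese tumors, and neither was called with any tumor left out.

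**Figure D3:**
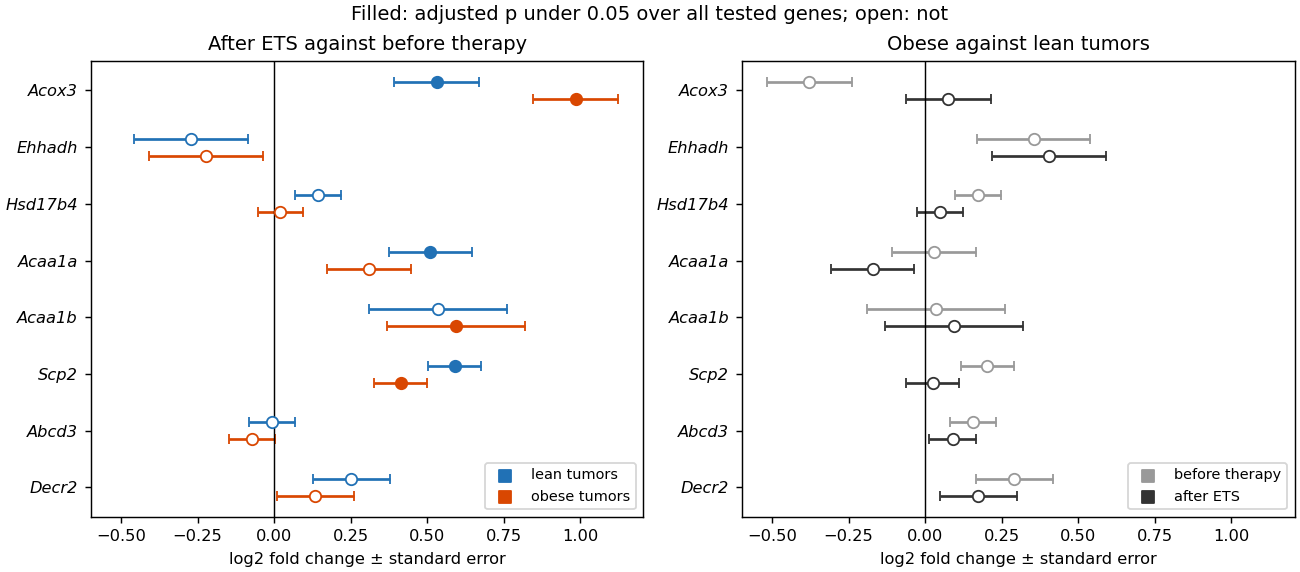
Log2 fold change with its standard error for each gene, after ETS against before therapy in each host (left) and in obese against lean tumors at each time (right), with filled points where the adjusted p lay below 0.05. Filled points are confined to the left panel, at Acox3 and Scp2 in both hosts, Acaa1a in lean and Acaa1b in obese tumors.

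The next question was whether the change of these genes after ETS differed between lean and obese tumors. The difference between the effects, lean minus obese, was called for 0 of the 8 genes in edgeR's test, where 6.35% of all genes were called as more positive in lean tumors and 10.1% as more positive in obese tumors. Acox3 came nearest, with a difference of -0.45 (standard error 0.20, unadjusted p = 0.0342, adjusted p = 0.130), and was the single gene at an unadjusted p under 0.05. DESeq2 called 0. The adjusted p of Acox3 ranged from 0.0543 to 0.232 over the fits without a tumor, lowest without obese ETS tumor 4, and the difference was called under 4 of 8 other settings, among them limma on TPM (-0.71, adjusted p = 0.0116). Of the thiolases, Acaa1a differed by 0.20 (standard error 0.19), Acaa1b by -0.059 (standard error 0.32) and Scp2 by 0.18 (standard error 0.12). With TPM the differences of Acaa1a and Scp2 turned to -0.087 and -0.10, again without a call. The calls of Acaa1a in lean tumors and of Acaa1b in obese tumors are therefore not shown to be particular to a host.

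Before therapy, 0 of the 8 genes differed between obese and lean tumors in edgeR's test, where 13.5% of all genes were higher and 12.9% lower in obese tumors. At an unadjusted p under 0.05, 3 genes were higher in obese tumors (Hsd17b4, Scp2 and Decr2) and 1 was lower (Acox3). Acox3 stood at 21.1 ± 3.69 CPM in obese and 27.4 ± 0.964 CPM in lean tumors, a log2 difference of -0.38 (standard error 0.14, adjusted p = 0.0556) with no overlap. This difference lay near the threshold: it was called in 6 of the 16 fits without a tumor and under 7 of 9 other settings, DESeq2 among them. Hsd17b4 was higher in every obese tumor than in any lean tumor, at 65.9 ± 2.67 against 58.5 ± 1.59 CPM (log2 0.17, standard error 0.075, adjusted p = 0.102). Without lean tumor 1 before therapy, Scp2 (log2 0.29, adjusted p = 0.0161) and Abcd3 (log2 0.22, adjusted p = 0.0385) were called as higher in obese tumors. That lean tumor had the highest fibroblast sum of its group, 2175 CPM, and a mitochondrial share of 6.04%. Of the melanocyte markers, 4 of 8 were lower in obese tumors before therapy, and of the macrophage markers 6 of 8, and their part in these differences was not tested. In bulk tumors, fewer cells of a type and less RNA per cell cannot be told apart.

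After ETS, 0 of the 8 genes differed between the hosts in edgeR's test, where 3.28% of all genes were higher and 2.3% lower in obese tumors, and DESeq2 called 0. Acox3 was then at 41.7 ± 7.77 CPM in obese and 39.6 ± 4.69 CPM in lean tumors, a log2 difference of 0.076 (standard error 0.14, adjusted p = 0.770), so that the lower level before therapy was followed by overlapping levels after ETS. Scp2 was at 94.6 ± 4.23 and 92.9 ± 9.33 CPM (log2 0.025, standard error 0.086). Ehhadh was the single gene at an unadjusted p under 0.05, at 16.7 ± 4.77 CPM in obese and 12.6 ± 1.32 CPM in lean tumors (log2 0.40, standard error 0.19, adjusted p = 0.190), with overlapping groups.

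The lean calls depended on the scaling. Tested with limma on log2(TPM + 1), a scale that understates changes of low genes, 0 of the 8 genes rose in lean tumors, where 8.33% of all genes rose, and 2 fell, where 44.9% of all genes fell. Ehhadh then fell by 0.57 (adjusted p = 0.0213) and Abcd3 by 0.37 (adjusted p = 0.00498), whereas Acox3 (0.13, adjusted p = 0.396), Acaa1a (0.12, adjusted p = 0.286) and Scp2 (0.21, adjusted p = 0.0562) kept their direction without a call, and Hsd17b4 and Decr2 turned to -0.23 and -0.12. The median of all tested genes shifted to -0.28 on that scale in lean tumors and to -0.052 in obese tumors, and relative to these shifts Acox3, the 3 thiolases and Decr2 lay above the median gene in both hosts. In obese tumors the same 3 genes as with TMM rose with log2(TPM + 1), where 15.9% of all genes rose, and 0 fell, where 20.6% of all fell: Acox3 by 0.84 (adjusted p = 0.000271), Acaa1b by 0.39 (adjusted p = 0.0478) and Scp2 by 0.31 (adjusted p = 0.0139). With log2(TPM + 0.1) Acaa1b was not called (adjusted p = 0.0556) and 2 genes rose. Of all genes called in lean tumors, 48% rose with TMM, 29.7% with library totals and 15.7% with TPM. The corresponding shares in obese tumors were 52.8%, 45.6% and 43.6%. Mitochondrially encoded RNA, whose share rose most in lean tumors, enters the denominators of TPM and of library totals, and its part in the shift was not tested.

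**Figure D4:**
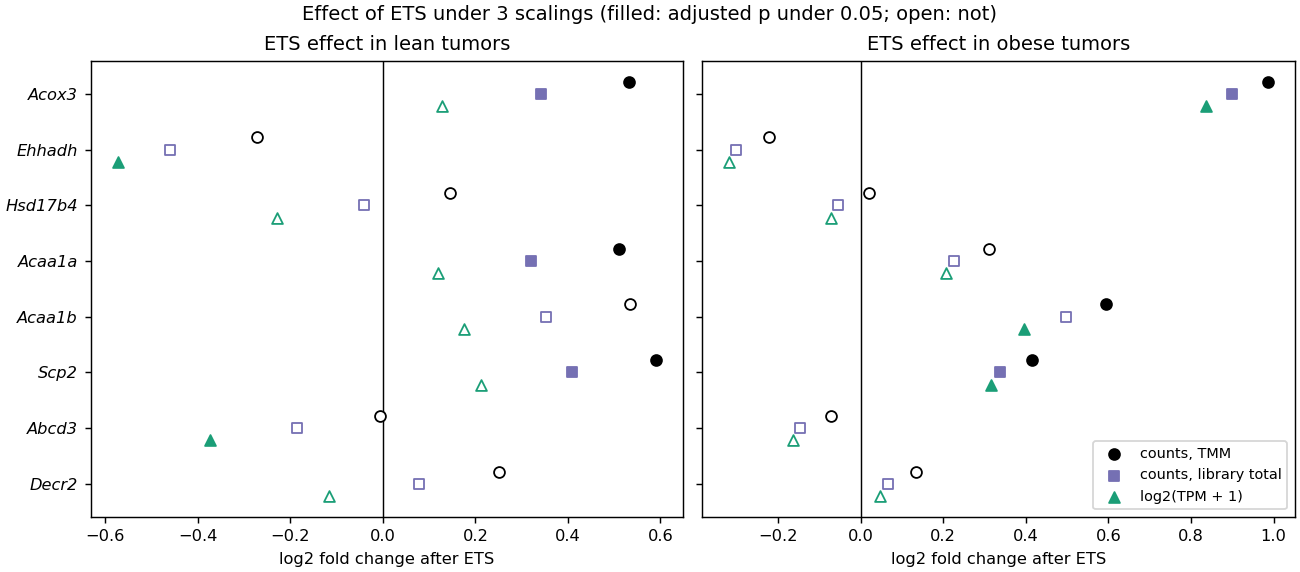
Log2 fold change after ETS of each gene under 3 scalings (circles, TMM; squares, library totals; triangles, log2(TPM + 1)), with filled symbols where the adjusted p lay below 0.05. In lean tumors the values move left from TMM to TPM, and Hsd17b4 and Decr2 cross 0 there, while in obese tumors Hsd17b4 alone crosses 0 and Acox3 stays above 0.8.

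Among themselves, the 8 genes did not follow a common pattern over the 16 tumors. Likeness was measured as the mean absolute difference of standardized log2 CPM, which is 0 for genes with the same pattern. Acaa1a and Acaa1b were the closest pair (0.392), followed by Acox3 and Acaa1b (0.464) and by Acaa1a and Scp2 (0.539), and Ehhadh and Acaa1a were the least alike (1.40). Paralogs can share reads, as set out above. Among the 13314 genes with a mean of at least 1 CPM, those most like Acox3 were Pld3 (0.120) and Fam102a (0.184), where the median gene stood at 1.12. Those most like Scp2 were Ak1 (0.209) and Shc3 (0.210), and those most like Acaa1a were Ap2s1 (0.193) and Cenpb (0.197). Ehhadh lay nearest to Scd1 (0.386), the desaturase of fatty acid synthesis, and Mmab (0.430), and Hsd17b4 nearest to Sdha (0.360), a subunit of succinate dehydrogenase, and Tstd3 (0.377). For Acaa1b these genes were Zbtb22 (0.258) and Tex264 (0.266), for Abcd3 Blzf1 (0.383) and Gm11605 (0.440), and for Decr2 Egln1 (0.309) and Srgap1 (0.318). All points of these patterns share their libraries.

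Further genes of the peroxisomal pathway were counted by list, to be read beside the shares over all tested genes. With TMM, 21% of all genes rose and 22.8% fell with the lean host, and 21.2% rose and 19% fell with the obese host. With log2(TPM + 1), 8.33% rose and 44.9% fell with the lean host, and 15.9% rose and 20.6% fell with the obese host. Of 27 other genes of peroxisomal fatty acid import and oxidation, 22 were tested, of which 14 rose and 0 fell with the lean host and 10 rose and 1 fell with the obese host, at median log2 fold changes of 0.50 and 0.34. With TPM, the lean host had 4 rises and 1 fall and the obese host 9 rises and 1 fall. The largest lean rises were those of the auxiliary isomerases Eci2 (1.23, adjusted p = 2.49e-05) and Ech1 (0.89, adjusted p = 5.80e-05), and both also rose in obese tumors (0.71 and 0.49) and in both hosts with TPM. Abcd2, a transporter of very long-chain acyl-CoAs related to Abcd3, rose in obese tumors (1.36, adjusted p = 0.0262, called in 11 of the 16 fits without a tumor), where macrophage and fibroblast markers also rose, 5 of 8 and 6 of 6, and their part was not tested. The obese fall was that of Slc25a17, a carrier of cofactors in the peroxisomal membrane (-0.26, adjusted p = 0.0189).

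Peroxins build the organelle and import its proteins. Their list also held other peroxisomal membrane proteins. Of its 18 tested genes, 6 rose and 0 fell with the lean host and 2 rose and 0 fell with the obese host. With TPM 1 rose and 4 fell with the lean host and 1 rose and 1 fell with the obese host, where the lean count of 4 falls in 18 is a lower share than over all genes. The rise with TPM was in both hosts that of Pxmp4, which is not a peroxin. Pxmp4, a peroxisomal membrane protein, rose by 0.88 in lean (adjusted p = 0.000489) and by 0.58 with the obese host (adjusted p = 0.00851), Pex11g, of the family that divides peroxisomes, by 0.59 in lean tumors (adjusted p = 0.0137) and Pex19, a chaperone of membrane proteins, by 0.33 in obese tumors (adjusted p = 0.0369, called in 11 of the 16 fits without a tumor). A mixed list held antioxidant and ether lipid enzymes together with other enzymes of peroxisomes, among them proteases and enzymes of the mevalonate pathway. Of its 15 tested genes, 4 rose and 3 fell with the lean host and 1 rose and 4 fell with the obese host. With TPM 0 rose and 9 fell (lean, where 44.9% of all genes fell) and 0 rose and 7 fell (obese, where 20.6% of all genes fell). The rises and falls in both hosts include those other enzymes, so the counts are not results about antioxidant or ether lipid enzymes alone. Far1, which makes the fatty alcohol for ether lipids, fell in both hosts (-0.65 and -0.59), as did Pmvk of the mevalonate pathway (-0.58 and -1.03), and both fell with TPM as well. Gstk1, a glutathione transferase, and Sod1, superoxide dismutase, rose in lean tumors (0.92 and 0.49), Lonp2, the peroxisomal protease, rose in obese tumors (0.34, adjusted p = 0.0455, called in 8 of the 16 fits without a tumor), and Idh1, which supplies NADPH, fell there (-0.78). Catalase (Cat), which removes the peroxide the oxidases make, was at 61.9 ± 2.67 and 56.5 ± 9.56 CPM in lean tumors (log2 -0.13, adjusted p = 0.311) and at 69.7 ± 0.964 and 58.6 ± 5.52 CPM in obese tumors (log2 -0.25, adjusted p = 0.0669), and was named after its values were seen.

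Of 7 genes of the bile acid side chain pathway 2 were tested, the racemase Amacr, which rose in lean tumors (0.47, adjusted p = 0.0138), and Hsd3b7, which rose in obese tumors (1.14, adjusted p = 7.57e-05). Of 11 mitochondrial counterparts, 7 rose, 0 fell and 4 were not called with the lean host, and 5 rose, 0 fell and 6 were not called with the obese host. With TPM, 6 rose and 4 fell with the lean host and 5 rose and 3 fell with the obese host. The dehydrogenase Acadvl rose by 1.04 and 0.74, its short-chain relative Acads by 1.10 and 0.49 and the mitochondrial thiolase Acaa2 by 0.96 and 0.62 in lean and obese tumors, whereas Hadh was called in lean tumors alone (0.34, adjusted p = 0.00539, against -0.031 with TPM). Of 7 tested PPAR receptors and partners, 1 rose and 2 fell with the lean host and 2 rose and 1 fell with the obese host, against 0 and 2 and 1 and 0 with TPM. Ppard rose in lean tumors (0.50, adjusted p = 0.000909) and Rxra, the common partner, in obese tumors (0.33, adjusted p = 0.0490), while the coactivator Ppargc1b fell in both (-0.81 and -0.74). These obese calls lay near the threshold: that of Rxra held in 6 of the 16 fits without a tumor and 3 of 10 other settings, and that of Ppargc1b (adjusted p = 0.0443) in 6 of 16 and 6 of 10, while the lean call of Ppargc1b held in 11 of 16 and 9 of 10. Pparg moved in opposite directions, down in lean tumors (-2.20, adjusted p = 0.000949) and up in obese tumors (1.27, adjusted p = 0.0242). The obese rise was not called without obese tumor 1, 3 or 4 before therapy or obese ETS tumor 1 (adjusted p up to 0.0907). Pparg is also a gene of adipocytes, and the summed level of 7 adipocyte markers was 10.3 to 28.0 CPM in lean tumors before therapy, 7.66 to 21.3 CPM after ETS, 13.5 to 102 CPM in obese tumors before therapy and 66.1 to 259 CPM after ETS. Of these, Fabp4 alone had a count in every tumor and was tested, and it was called as higher after ETS in obese and not in lean tumors. Lep and Retn were at 0 in all lean tumors after ETS. Macrophage and fibroblast markers moved the same opposite ways, and the part of these cells in the Pparg values was not tested. Ppara was low, at 0.512 ± 0.127 and 0.851 ± 0.398 CPM in lean tumors (log2 0.73, adjusted p = 0.0904) and at 0.805 ± 0.139 and 0.984 ± 0.295 CPM in obese tumors (log2 0.28, adjusted p = 0.522), and was named after its values were seen.

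**Figure D5:**
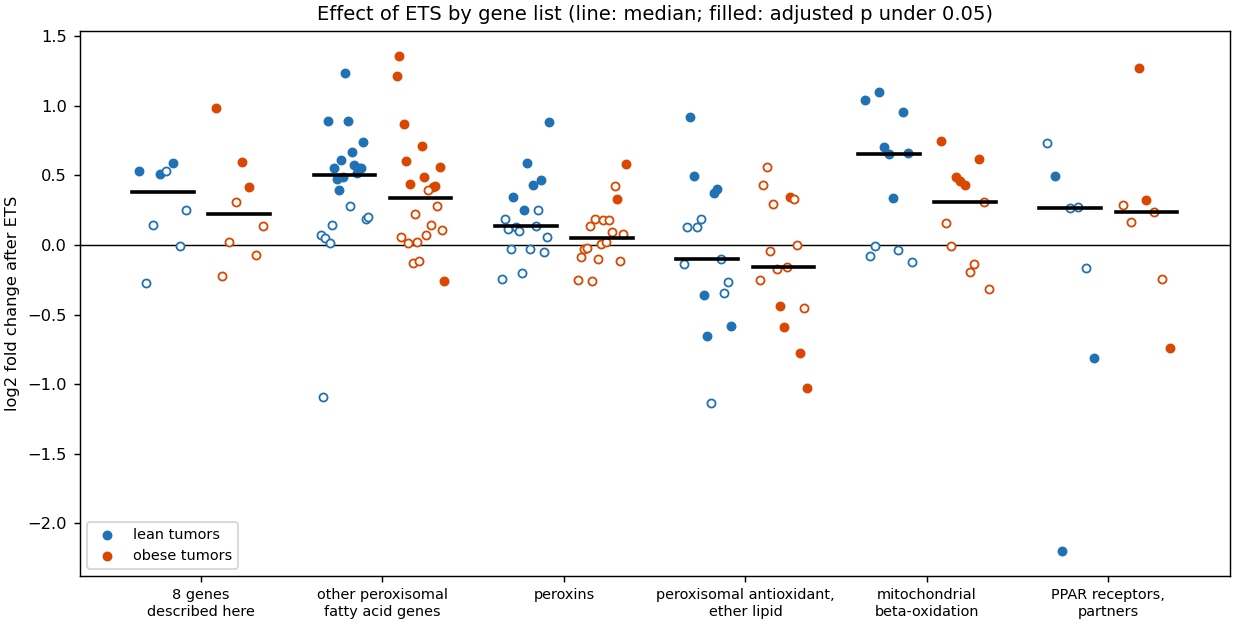
Log2 fold change after ETS of each tested gene of each list in lean (blue) and obese (orange) tumors, with filled points where the adjusted p lay below 0.05 and a line at the median; counts are scaled by TMM. The medians of the 8 genes, of the other peroxisomal fatty acid genes and of the mitochondrial counterparts lie above 0 in both hosts, lower in obese tumors. That of the mixed list labeled antioxidant, ether lipid, which also holds proteases and mevalonate enzymes, lies below 0. With TPM the lean median of the 8 genes is at 0.0017 and that of the list labeled peroxins at -0.24.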

How the data were processed

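RNA of 16 tumors was sequenced as paired reads from stranded, poly(A)-selected libraries. Per the submitters' processing notes, bcl2fastq 2.20.0, Trimmomatic, HISAT2 2.1.0 and StringTie 2.1.3b were used with the mm10 build. The authors deposited whole-number counts per gene from StringTie that were not normalized, and TPM and FPKM values from the same step. The FPKM columns stayed unused. Strand use in counting is not given in the sources used here, so genes overlapping on opposite strands may share reads.

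Only genes counted in every tumor were tested, counts were scaled by TMM, and edgeR 4.0.16 (quasi-likelihood test, R 4.3.3) was fitted to all 16 tumors with a mean for each of the 4 groups, in place of the exact test the authors used. P-values were adjusted by the Benjamini-Hochberg method over the 16209 tested genes, and a gene was called at an adjusted p under 0.05. Standard errors were derived from the F statistic of each contrast. CPM values are scaled by TMM. TPM was tested with limma 3.58.1 on log2(TPM + 1) as an alternative. Further alternatives were DESeq2 1.42.0, its size factors, other filters on low counts, the exact test on counts with 1 added, a pseudocount of 0.1, a fit of the tumors of a single host, the replicate number as a block and each tumor left out. Library totals in place of TMM were added after seeing the data. The code was tested on simulated data.

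Identifiers were matched to the GRCm38.p6 gene table for 45679 of 45777 genes. Besides the 8 genes, the text names, for each list and comparison after ETS, up to 2 of the largest called rises and falls at a mean of at least 1 CPM, and the 2 genes most like each of the 8, and some genes of the lists are not reported here by name. The genes, lists and tests were chosen with earlier results of these data known. Promoter windows on chromosome 18 were not searched. All pairs of tumors of a group differed by more than sampling noise.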

Additional observations from a re-analysis of the deposited data

Results flagged for a closer look

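Within the lean ETS group, Acaa1a stood at 92.7 CPM in tumor 2, far from the nearest other tumor at 66.7 CPM and the lowest at 62.0 CPM. With this many groups and genes examined, about 1 in 20 groups is expected to hold such a tumor by chance, and without tumor 2 the lean rise of Acaa1a was still called.

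The change after ETS on the log2 scale, lean minus obese, differed in edgeR's interaction test for 8 genes named from the related lists. It was more positive in obese tumors for Abcd2 (-2.45, adjusted p = 0.0173), Hsd3b7 (-1.07, adjusted p = 0.00265) and Pparg (-3.47, adjusted p = 0.00110). It was more positive in lean tumors for Slc25a17 (0.46, adjusted p = 0.0121), Amacr (0.60, adjusted p = 0.0494), Pecr (0.60, adjusted p = 0.0251), Sod1 (0.53, adjusted p = 0.00516) and Hadh (0.53, adjusted p = 0.00730). With TPM the difference was called for Abcd2, Hsd3b7, Pparg and Sod1, and not for Slc25a17, Amacr, Pecr and Hadh. List genes were named where a comparison after ETS called them, this difference among the comparisons, so their count was set in part by the choice. Over all tested genes, 6.35% were called as more positive in lean and 10.1% as more positive in obese tumors. The count is therefore not to be set against the 8 genes described here, of which none was called.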

How the results depend on the processing

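Of 1008 values of the 8 genes recomputed under an alternative, 907 kept their direction and their side of the threshold, 32 gained a call, 22 lost one and 47 changed sign, all of the last in values that were not called. With limma on log2(TPM + 1) and on log2(TPM + 0.1), 0 genes rose and 2 fell in lean tumors. In obese tumors 2 of the 8 genes rose, without Acaa1b, under log2(TPM + 0.1), library totals, filterByExpr, no exclusion of genes at 0 and the fit of the obese tumors alone. Hsd17b4 changed sign in lean tumors under library totals, TPM + 1 and TPM + 0.1 (-0.040, -0.23 and -0.23) and in obese tumors (-0.055, -0.073 and -0.074). Under the TPM settings Decr2 (-0.12 and -0.13) and Hadh (-0.031 and -0.032) changed sign in lean tumors, and with filterByExpr Abcd3 did (0.0058). The difference between the effects changed sign under both TPM settings for Hsd17b4 (-0.16 and -0.16), Acaa1a (-0.087 and -0.088), Scp2 (-0.10 and -0.10), Abcd3 (-0.21 and -0.21) and Decr2 (-0.16 and -0.17), and under library totals for Abcd3 (-0.037). That difference was called for 1 gene, Acox3, under library totals and both TPM settings. Before therapy 1 gene, Acox3, was called as lower in obese tumors with DESeq2's size factors, library totals, the exact test, DESeq2 and both TPM settings, and Acaa1a (-0.11 and -0.11) and Acaa1b (-0.076 and -0.10) changed sign with TPM. The exact test gives no difference between the effects. The cause of these changes was not tested.

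Leaving out 1 tumor at a time gave 3 to 4 rising genes in lean and 2 to 4 in obese tumors with 0 falling in either, 0 called differences between the effects, and before therapy 0 to 2 genes higher (2 without lean tumor 1 before therapy) and 0 to 1 lower in obese tumors (1, Acox3, without lean ETS tumor 1 or 2, obese tumor 1 or 2 before therapy, or obese ETS tumor 1 or 4). Changes of sign came with lean Abcd3 (range -0.041 to 0.055), obese Hsd17b4 (-0.0061 to 0.079), the differences of Ehhadh (-0.25 to 0.090) and Acaa1b (-0.20 to 0.12), Acaa1a (-0.018 to 0.11) and Acaa1b (-0.061 to 0.17) before therapy, and Acox3 (-0.031 to 0.16), Scp2 (-0.013 to 0.10) and Acaa1b (-0.11 to 0.21) after ETS.

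The labels give the tumor number no meaning, and the correlations of deviations between tumors of the same number ranged from -0.11 to 0.45. Whether such tumors share a day, litter or batch is not given in the sources used here, and no pairing was assumed in the main fit. With the number as a replicate block, 4 genes rose in each host, the difference was called for 1 gene (Acox3, -0.46), and before therapy 1 gene was higher (Scp2, 0.21) and 1 lower (Acox3, -0.40) in obese tumors. Of all 16209 genes, 3707 rose in lean and 3643 in obese tumors in that fit, against 3410 and 3438 without the block. The difference was called for 1296 genes as more positive in lean and for 1791 as more positive in obese tumors. Before therapy 2445 genes were higher and 2356 lower in obese tumors. The smallest total was 47199949 counts, at which counting error is small for these genes, so the 4 tumors a group set the precision, and a call that was missed does not show that levels were alike.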
